A study of Mus musculus with 8 samples.

Results

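The AP-2 genes Tfap2b and Tfap2c were covered by 7 of the 2840 regions in which SMCHD1-GFP chromatin occupancy was measured by ChIP-seq. The regions were taken by position on GRCm38, with 5 overlapping chr1:19195000-19245000 (Tfap2b) and 2 overlapping chr2:172540000-172565000 (Tfap2c). Both genes were chosen from the occupancy values of these same samples, so their levels and differences are given as a description, with no test.

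ChIP-seq counts DNA fragments recovered with an antibody, here raised against the GFP fused to endogenous SMCHD1. The samples were primary neural stem cells (NSCs) from the cortex of E14.5 embryos, grown as an adherent layer in culture, all female and on the C57BL/6J strain. There were 3 lines of genotype Smchd1GFP+/+ (called wild-type, since they carry no change other than the tag) and 3 lines of genotype Smchd1GFPMommeD43/MommeD43, in which the MommeD43 missense change in the extended ATPase domain was recreated with CRISPR on the tagged allele. Every line of both groups was homozygous for the GFP tag. The authors merged the 3 lines of a genotype into 1 value per region, so no spread between lines can be given. The wild-type libraries came from earlier work by the same group and no batch is named, so batch and genotype cannot be told apart. Expression was not analysed here, and the labelled cell type was therefore not checked against its markers.

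SMCHD1 is a non-canonical SMC protein that silences genes on the inactive X chromosome, in imprinted clusters, in the Hox and protocadherin clusters and at other autosomal sites. AP-2 proteins are transcription factors that bind GC-rich DNA as dimers. Tfap2b is known for roles in the kidney, limb and ductus arteriosus and in neural crest derivatives, and Tfap2c for roles in trophoblast, germ cells and neural crest.

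Each region was a SMCHD1 peak with 5000 bp added on either side, and its value was the log2 of a read count normalized to library size. Tfap2b (ENSMUSG00000025927.13) runs from 19208914 to 19238576 on the plus strand of chromosome 1 and has 7 exons. Of its 5 peaks, 4 lay before the gene start, ending 1864, 664, 364 and 64 bp from it, and the fifth lay inside the gene from 10137 bp past the start. That inner peak contained the whole 61 bp of coding exon 3 and was otherwise intronic. Tfap2c (ENSMUSG00000028640.11) runs from 172549593 to 172558622 on the plus strand of chromosome 2 and also has 7 exons. Its 2 adjoining peaks began 208 and 808 bp past the start. The first took in 82 bp of exon 1 (34 bp untranslated and 48 bp coding) and continued into intron 1, where the second lay.

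The peaks at the 2 genes were unlike in sequence, and 300 bases of each kind are printed here to show it, with every CG dinucleotide in capitals. The Tfap2b peak next to the gene start, at chr1:19208551-19208850, had a GC content of 31.7% and 5 CG. The inner Tfap2b peak, at chr1:19219051-19219350, had a GC content of 31.0% and 2 CG. A stretch of the first Tfap2c peak that lies in intron 1, at chr2:172549883-172550182, had a GC content of 65.3% and 23 CG. It is richer than the peak it comes from, which had 58.0% and 33 CG over 600 bp, whereas the Tfap2b sequences are whole peaks. All 3 sequences are the plus strand of GRCm38.p6, 5′ to 3′, which is the sense strand of both genes.
Tfap2b upstream: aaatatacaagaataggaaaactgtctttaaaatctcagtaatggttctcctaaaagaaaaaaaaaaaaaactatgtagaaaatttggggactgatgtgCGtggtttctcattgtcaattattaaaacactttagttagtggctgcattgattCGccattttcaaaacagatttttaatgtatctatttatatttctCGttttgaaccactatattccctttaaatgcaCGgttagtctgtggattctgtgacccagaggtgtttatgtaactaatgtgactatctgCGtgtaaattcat
Tfap2b exon 3: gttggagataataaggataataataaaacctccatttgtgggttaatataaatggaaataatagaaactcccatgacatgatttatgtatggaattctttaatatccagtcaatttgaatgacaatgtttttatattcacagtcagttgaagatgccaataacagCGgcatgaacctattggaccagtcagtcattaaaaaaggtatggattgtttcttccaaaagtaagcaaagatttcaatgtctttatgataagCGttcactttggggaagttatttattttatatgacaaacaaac
Tfap2c intron 1: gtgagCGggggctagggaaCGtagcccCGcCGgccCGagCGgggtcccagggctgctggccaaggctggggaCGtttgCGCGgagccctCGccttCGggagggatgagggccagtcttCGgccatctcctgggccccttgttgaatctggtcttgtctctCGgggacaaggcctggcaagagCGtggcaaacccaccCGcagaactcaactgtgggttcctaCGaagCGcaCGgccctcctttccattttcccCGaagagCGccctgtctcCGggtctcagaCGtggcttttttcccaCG

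At Tfap2b, the SMCHD1-GFP value in MommeD43 exceeded that in wild-type over all 5 regions. The region farthest upstream (window chr1:19200551-19212050) had 7.96 in wild-type and 8.42 in MommeD43. The region of the peak ending 664 bp before the start (chr1:19202951-19213250) had 8.01 in wild-type and 8.49 in MommeD43. The region of the peak ending 364 bp before it (chr1:19203251-19213550) had 8.05 and 8.56. The MommeD43 value exceeded the wild-type value by 0.46, 0.48 and 0.51 in these 3 regions, or 1.38, 1.39 and 1.42-fold. The region nearest to the start (chr1:19203551-19213850), whose peak is the first sequence above, had 8.03 in wild-type and 8.56 in MommeD43, a difference of 0.52 or 1.44-fold. The region around exon 3 (chr1:19214051-19224350), whose peak is the second sequence above, had the lowest level of the gene, 7.44 in wild-type and 7.99 in MommeD43, with a difference of 0.55 or 1.46-fold.

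The 4 upstream regions were not independent measurements. Any pair of them shared 8500 to 10000 bp, or 82.5% to 97.1% of the shorter window, and so counted mostly the same reads. The exon 3 region shared no base with them and lay wholly inside the gene. It stood 0.59 below its nearest upstream neighbour in wild-type and 0.56 below in MommeD43. Its difference between genotypes was 0.03 larger, with a counting SD of 0.13 for that gap, so the upstream and the inner region could not be told apart in difference at this depth.

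At Tfap2c, both regions were also higher in MommeD43. The first (chr2:172544801-172555400), which holds the third sequence above, stood at 8.25 in wild-type and at 8.79 in MommeD43. The second (chr2:172545401-172556000) had 8.25 and 8.79 as well. The windows shared 10000 bp, or 94.3% of their length, and are best read as 1 measurement. Their differences were 0.53 and 0.54, each 1.45-fold. Taking the region with the highest level at each gene, the difference at Tfap2c exceeded that at Tfap2b by 0.03, with a counting SD of 0.11.

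**Figure D1:**
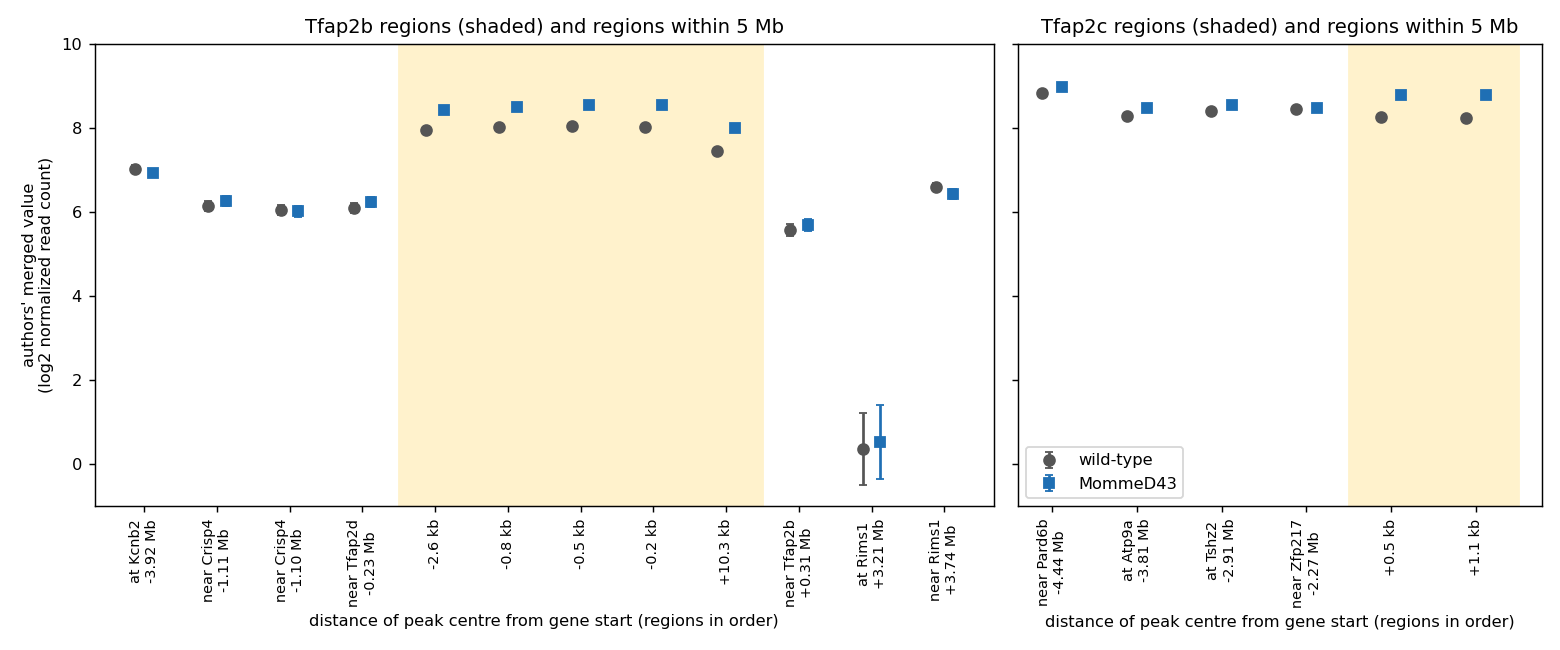
Value in each genotype (log2 normalized read count) at the Tfap2b regions and the Tfap2c regions, shaded, and at the regions within 5 Mb, in order along the chromosome. Gray circles are wild-type, blue squares are MommeD43 and bars are the counting SD of each value. MommeD43 lies 0.46 to 0.55 above wild-type in the 7 shaded regions, and no region outside the shading has as large a gap.

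The precision of these values could be gauged from the reads alone. From the low values of each column, the geometric mean of reads per library was estimated at 181, 188, 192, 191 and 127 in wild-type and 214, 224, 235, 235 and 159 in MommeD43 over the Tfap2b regions, in order along the chromosome. At Tfap2c it was 222 and 221 in wild-type and 276 and 275 in MommeD43. MommeD43 libraries had on average 85.7% of the depth of wild-type libraries, yet held more reads in each of the 7 regions. The counting SD of a difference was 0.08 in each of them except the exon 3 region, where it was 0.10. It covers counting error only, treats duplicate reads as separate, leaves out the spread between the 3 lines and is therefore a lower bound on the error.

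Over all 2840 regions, the median value was 7.76 in wild-type and 7.83 in MommeD43, the median difference 0.07 and the SD of the differences 0.19. The paper reported that the genotypes correlated very highly over these sites, and proposed that MommeD43 leaves the localization of SMCHD1 unaltered. MommeD43 was the higher genotype in 66.0% of regions, and in 1.23% it was higher by more than 0.5 on the log2 scale. Of the 7 AP-2 regions, 7 were higher and 5 were higher by more than 0.5, and since the genes were chosen from this contrast nothing is read from that count. The 2 regions that missed the mark were the most upstream ones of Tfap2b. Ordered by difference, the 7 ranked 25, 28, 29, 30, 34, 45 and 48 among 2840. The differences were thus near the upper end of the list but not at its top.

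In level, the AP-2 regions were close to the middle of the list. In wild-type, the upstream Tfap2b regions stood at percentiles 54.1 to 56.2, the exon 3 region at 42.4 and the Tfap2c regions at 61.5 and 61.2. In MommeD43 they stood at percentiles 63.2 to 66.2, 53.3, and 72.0 and 71.9. The exon 3 region was the lowest of the 7 in both genotypes, and each region stood at least 9.05 percentile points higher in the MommeD43 list than in the wild-type list. For comparison, between 327 and 341 other regions had a wild-type value within 0.25 of each AP-2 region. Their median difference was 0.02 to 0.08, and between 3 and 8 of them had a larger difference than the AP-2 region in question, a count that the choice of the genes bears on and from which nothing is read.

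**Figure D2:**
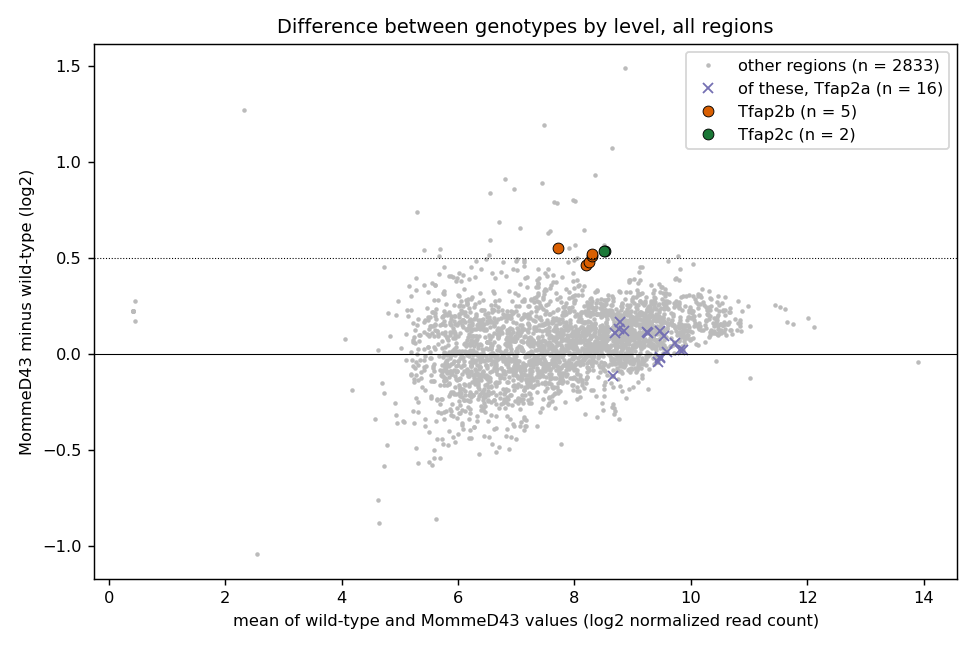
Difference between genotypes (MommeD43 minus wild-type, log2) against the mean of both values (log2 normalized read count), with 1 point per region. The Tfap2b and Tfap2c points, the latter a nearly superimposed pair, lie at 0.46 to 0.55 in the middle of the range of levels, whereas the Tfap2a crosses lie between -0.11 and 0.16.

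The surroundings of Tfap2b had lower values than the gene in both genotypes. Within 5 Mb on chromosome 1 there were 7 other regions, all below the Tfap2b regions in level, and the 6 of them with reads had medians of 6.12 in wild-type and 6.25 in MommeD43. The nearest on the left (chr1:18971201-18981500), whose closest gene start is that of Tfap2d, another AP-2 gene, had 6.10 in wild-type and 6.23 in MommeD43, a difference of 0.13 with a counting SD of 0.17. The nearest on the right (chr1:19513601-19523900), in the interval after Tfap2b, had 5.57 and 5.69, a difference of 0.12 with a counting SD of 0.20. The highest was in Kcnb2, a voltage-gated potassium channel gene, with 7.03 and 6.94. Near Crisp4, which encodes a sperm protein, 1 region had 6.14 and 6.27 and another 6.04 and 6.02. The windows of this pair overlapped and so shared reads, and the 7 regions made up 6 groups of overlapping windows. Near Rims1, which encodes a synaptic scaffold protein, 1 region had 6.60 and 6.42, and the region inside the gene was all but empty, with 0 reads in MommeD43 and a value that equals 1 read over the 3 libraries in wild-type, so that no difference can be given for it. In the 6 regions with reads, the overlapping Crisp4 pair counted as 2, differences ran from -0.17 to 0.14. Of these, 3 were higher and 3 lower in MommeD43, and 0 were as large as in any Tfap2b region. Tfap2b was chosen from this contrast, so nothing is read from that last count. The median of the Tfap2b differences exceeded the median of these 6 by 0.46, and by 0.39 with the empty region counted.

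Around Tfap2c the other regions were closer to the gene in level than around Tfap2b. Their wild-type median was 8.42, beside 8.25 at Tfap2c. All 4 other regions within 5 Mb lay on the centromeric side, and all 4 were above the Tfap2c regions in wild-type. The region near Pard6b, a cell polarity gene, had 8.84 in wild-type and 8.98 in MommeD43. Atp9a, a phospholipid flippase gene, had 8.28 and 8.49. Tshz2, a zinc-finger and homeobox transcription factor gene, had 8.39 and 8.55, and the region near Zfp217, a zinc-finger gene, had 8.45 and 8.48. Their differences were 0.14, 0.21, 0.15 and 0.03, with counting SDs of 0.07 to 0.08. In MommeD43, both Tfap2c regions (8.79) were above 3 of these 4, all but the one near Pard6b. The median of the Tfap2c differences exceeded the median of these neighbours by 0.39.

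**Figure D3:**
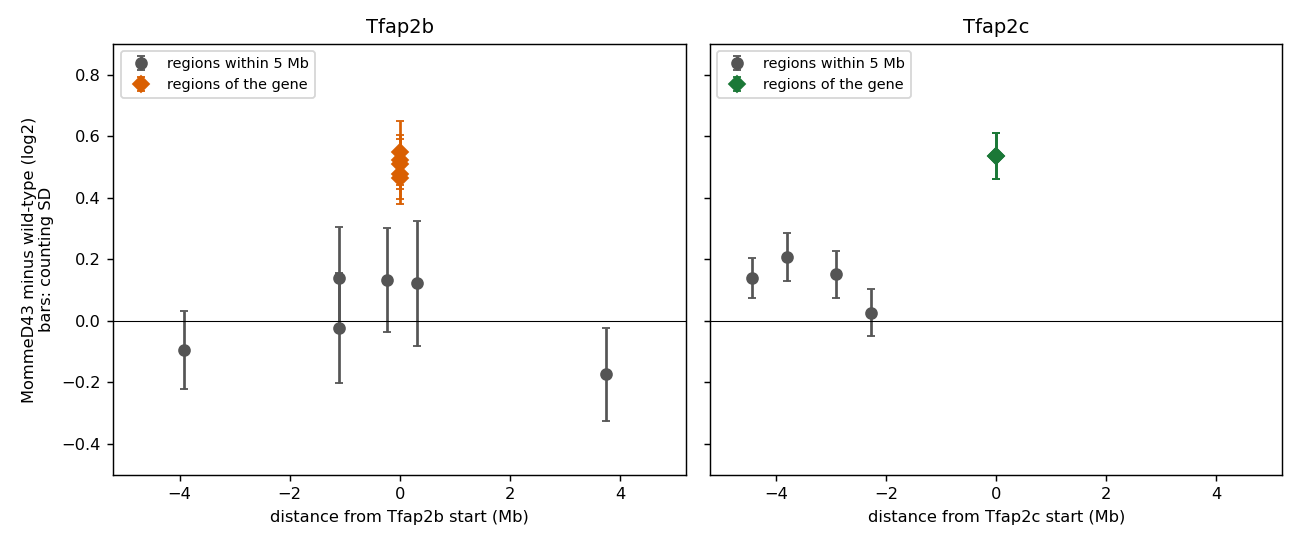
Difference between genotypes (MommeD43 minus wild-type, log2) against distance from the start of Tfap2b and of Tfap2c (Mb), with bars for the counting SD. The regions of each gene lie near distance 0 at 0.46 to 0.55, and the regions within 5 Mb lie between -0.17 and 0.21. The nearly empty region inside Rims1 is left out of the plot.

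The rest of each chromosome is given for scale. Among the 225 other regions of chromosome 1, the median difference was 0.08, MommeD43 was higher in 150, and 0 were higher by more than 0.5. The highest of these differences, 0.45 at a region near Cdh7, a cadherin gene, was below every Tfap2b value, of which the lowest was 0.46. Among the 196 other regions of chromosome 2, the median difference was also 0.08, MommeD43 was higher in 135, and 0 were higher by more than 0.5. The highest, 0.43 at Dlx2, a homeobox gene of the forebrain and branchial arches, was below both Tfap2c values. Tfap2b and Tfap2c were chosen from this contrast, so nothing is read from these orderings. Tfap2c lies towards the distal end of chromosome 2, where 5 regions followed it.

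The base composition of the windows also set the genes apart. The Tfap2b windows had a GC content of 39.6% to 42.8%, around the median of all regions (41.8%). The Tfap2c windows had 54.9% and 55.1%, percentiles 99.0 and 99.2 of the list. CG dinucleotides numbered 11.9 to 17.9 per kb at Tfap2b and 42.3 and 43.0 per kb at Tfap2c, against a median of 9.91. Within the peaks, the 3 of Tfap2b that lie nearest to the gene start on its upstream side held 0, 0 and 5 CG in 300 bp each. The Tfap2b peak farthest upstream held 25 CG in 1500 bp, and the inner one held 2 in 300 bp. The Tfap2c peaks held 33 and 48 CG in 600 bp each. Soft-masked repeats made up 17.5% to 26.0% of the Tfap2b windows and 13.5% and 13.6% of the Tfap2c windows, against a median of 24.4%. Of the 7 windows, 6 held the start of a protein-coding gene, all but that of exon 3, against 30.3% of all windows. The windows were taken around the genes, and overlapping windows share a start, so nothing is read from that count.

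GC content moved with the difference between genotypes over the list. The median difference was 0.02 in the 1871 regions with a GC content below 45% and 0.13 in the 969 others. After a locally weighted fit of the difference on GC content, the Tfap2b regions stood 0.45 to 0.49 above the fit and the Tfap2c regions 0.38 above it. After a fit on level instead, they stood 0.39 to 0.51 above it at Tfap2b and 0.45 above it at Tfap2c. The difference at Tfap2c was therefore smaller relative to regions of like GC content, and that at Tfap2b changed little.

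**Figure D4:**
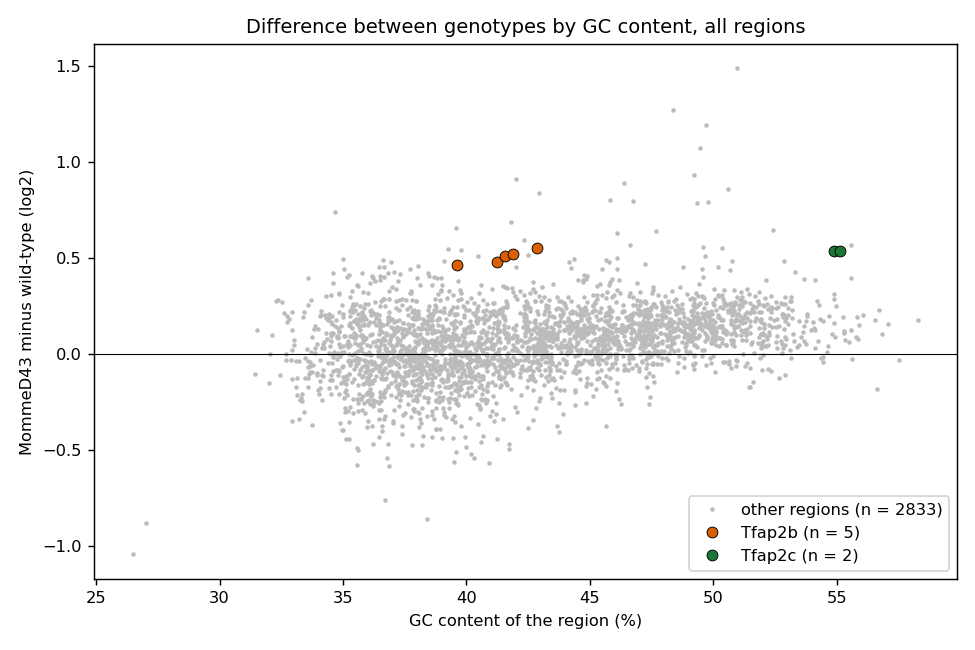
Difference between genotypes (MommeD43 minus wild-type, log2) against the GC content of each window (%), with 1 point per region. The Tfap2b points lie at 39.6% to 42.8% GC in the body of the cloud, the Tfap2c pair at 54.9% and 55.1% near its right edge, and both are above the bulk of points of the same GC content.

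The AP-2 consensus GCCNNNGGC, which reads the same on both strands, was searched in peaks and windows as a feature of the sequence. Of the 7 peaks, 1 held a match, the second of Tfap2c, among 600 bp peaks of which 19.8% held one. Of the 4 Tfap2b peaks of 300 bp, 0 held one, among 300 bp peaks of which 3.60% did. The windows held 2 to 3 matches at Tfap2b (1.74 to 2.91 per 10 kb) and 6 at Tfap2c (5.66 per 10 kb), where 71.1% of all windows held a match and the median was 0.971 per 10 kb. The fixed bases of the consensus are all G or C, and the Tfap2c windows were at percentiles 99.0 and 99.2 in GC content. No background of like GC content was counted, so these rates are not corrected for base composition. A match is a run of letters and not a site at which a factor was shown to bind.

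Of all 21938 protein-coding genes of the annotation, 6.20% had a region within 5 kb. Among the AP-2 genes, 3 of 5 did, including the 2 chosen. Tfap2a, the AP-2 gene best known for craniofacial and neural crest development, had 16 overlapping regions in 1 group (chr13:40707251-40748750). Its values were 8.65 to 9.85 in wild-type (median 9.44) and 8.61 to 9.87 in MommeD43 (median 9.43). In each genotype all 16 were above every Tfap2b region, and all 16 were above Tfap2c in wild-type and 14 in MommeD43. The difference was -0.11 to 0.16, with 12 regions higher and 4 lower in MommeD43 and counting SDs of 0.05 to 0.07. The highest and the lowest difference were those of the first and the last of its regions along the chromosome. In its region with the highest wild-type value the levels were 9.85 and 9.87, a difference of 0.02. The difference at Tfap2b exceeded that at Tfap2a by 0.49, and that at Tfap2c exceeded it by 0.51, comparing the region with the highest level of each gene. No test is given for this, since Tfap2b and Tfap2c were chosen from the same contrast. Tfap2d and Tfap2e had no region within 5 kb. The region nearest to Tfap2d, 34.2 kb away, is the most upstream one of Tfap2b, and the nearest to Tfap2e was 629 kb away. Of the AP-2 cofactor genes Kctd1, Kctd15, Cited1, Cited2 and Cited4, 0 of 5 had a region within 5 kb, and their nearest regions were 85.8 to 2389 kb away.

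Genes that act with AP-2 factors in the neural plate border, neural crest and surface ectoderm were considered as a list. Of 26 such genes, 10 had a region within 5 kb, beside the 6.20% of all protein-coding genes, and no test of that share was made. By the region with the highest wild-type value of each gene, MommeD43 was higher in 8, beside 66.0% of all regions. It was higher by more than 0.5 in 0, beside 1.23% of all regions. The median difference was 0.10, beside 0.07 over all regions. The only region of Dlx5 is also among the 7 of Dlx6, so the 10 genes are not separate, and nothing is read from these counts. Pax3, a paired-box factor of the dorsal neural tube and crest, had the highest wild-type level of the list, 9.99 in wild-type and 10.07 in MommeD43. Msx1, a homeobox factor of the neural plate border, had 9.76 and 10.06, and this difference of 0.30 was the largest of the 10. Hand2, a bHLH factor of crest derivatives and heart, had 9.51 and 9.56. Gata3, a zinc-finger factor with roles in ectoderm and the sympathetic lineage, had 9.39 and 9.53. Dlx5 and Dlx6, neighbouring homeobox genes, had differences of 0.29 and 0.28, whereas Snai2, a repressor active in migrating crest, was lower in MommeD43 by 0.19 and Alx1, a homeobox factor of the face, by 0.04. In wild-type, 9 of the 10 genes were above Tfap2c in level, all but Snai2, and in difference all 10 were below it. Tfap2c was chosen from this contrast, so nothing is read from the order in difference.

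**Figure D5:**
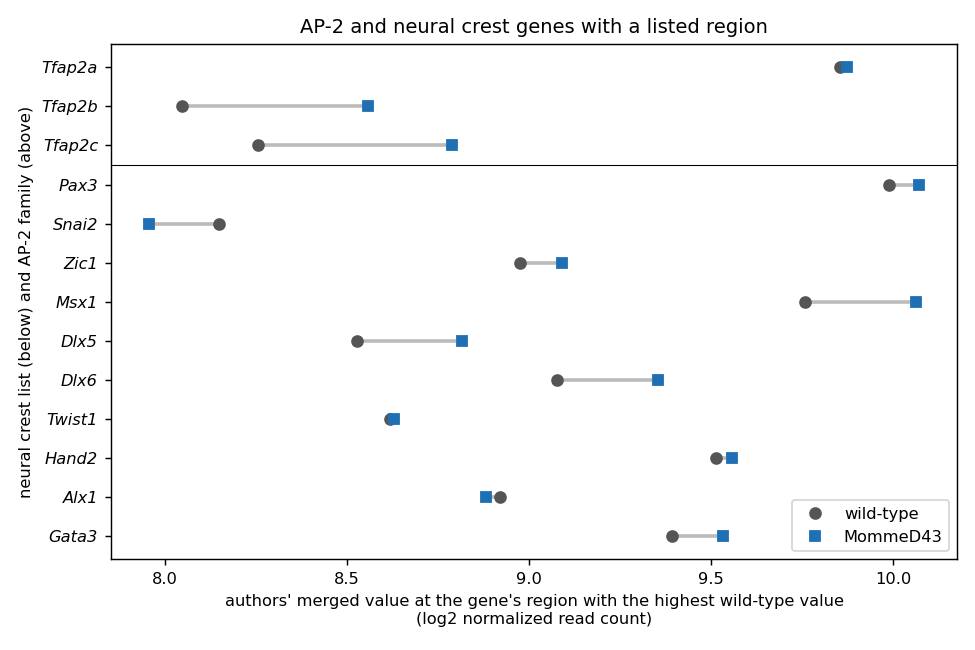
Value in wild-type (gray circles) and MommeD43 (blue squares), as log2 normalized read count, at the region with the highest wild-type value of each AP-2 family or neural crest gene that had a region within 5 kb. Tfap2b and Tfap2c show the widest gaps, 0.51 and 0.53, at the lower end of the levels, and Tfap2a the narrow gap of 0.02 near the upper end.

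The regions elsewhere that came closest to the AP-2 genes in both values were sought by the Euclidean distance over the 2 genotype values, outside the Hox clusters and over 5 Mb away. For the Tfap2b region with the highest level, the nearest were at Irx2 (8.14 in wild-type and 8.43 in MommeD43, distance 0.154), Smyd3 (8.12 and 8.41, distance 0.164) and Skap1 (8.17 and 8.45, distance 0.167), all with a higher wild-type value and a smaller difference. For Tfap2c, the region at Tmem132e, which encodes a transmembrane protein, had nearly the same pair of values, 8.22 and 8.79, at a distance of 0.0311. Its GC content, 55.6%, was also close to that of Tfap2c. The next were at Cdk5r2 (8.43 and 8.73, distance 0.182) and Ebf1 (8.40 and 8.68, distance 0.183). With only 2 values per region, likeness of pattern means likeness of level and difference and nothing more.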

How the data were processed

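GFP ChIP-seq of 3 wild-type and 3 MommeD43 NSC lines was used, grouped by the genotype in the sample labels. The 2 WCE libraries were not used. Single-end reads of 75 bp were trimmed by the authors with Trim Galore 0.4.4, mapped to GRCm38 with Bowtie2 2.3.4.1, and, after extension by 150 bp, quantified in SeqMonk around known SMCHD1 peaks. The deposited log2 values are read counts normalized to library size, with the 3 replicates merged to 1 value. Such scaling does not remove a difference between genotypes in enrichment over background.

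From these, differences between genotypes were computed, with no test, since no value per line was at hand. The lowest value of each column was taken as a count of 0 reads entered as 0.9. With it, 43 of 43 low values gave whole read products within 0.05. These include the values at the column minimum, which do so by construction. This gave a mean log2 library factor (0.46 and 0.68) and the reads behind each value. Total library depths could not be derived. Locally weighted fits (share 0.3) used the 2824 regions above 4 in wild-type. Exons followed GENCODE M21. Python 3.11.15, NumPy 2.4.6, pandas 2.3.3, statsmodels 0.14.6 and Matplotlib 3.10.9 were used, and the functions were tested on simulated data.

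The members and gene lists were chosen with earlier results of these data known. Genes are named by rule: all regions of both genes, the neighbours within 5 Mb, the 3 regions of most similar values for each gene, the AP-2 and cofactor lists, and the 4 neural crest genes highest in wild-type. The other crest genes, Cdh7 and Dlx2 were named after their values were seen. Alternatives covered the scaling, window length, overlap, flank and fits.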

Additional observations from a re-analysis of the deposited data

How the results depend on the processing

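Of 48 alternatives, 32 were classed as leaving the value the same, 16 moved it past its margin and 0 reversed it. Counts of genes with a region had no margin and were all classed as the same. With 50 kb flanks, 4 AP-2 genes had a region in place of 3. The added gene was Tfap2d, and its 5 regions were those of Tfap2b. With gene bodies only, 9 crest genes had a region in place of 10. The median difference at Tfap2b was 0.43 to 0.53 over the alternatives, and relative to the regions around it 0.38 to 0.46. At Tfap2c it was 0.37 to 0.53, and relative to the regions around it 0.39 to 0.51. The value of 0.51 was taken against 1 region, the only one within 2.5 Mb. The values moved past their margin were these. The Tfap2c median difference of 0.54 was 0.38 above a fit on GC content, and 0.37 above a fit on GC content and then on the soft-masked share, an alternative added after the data were seen. Per kb of window, the median levels were 4.65 (wild-type) and 5.13 (MommeD43) at Tfap2b and 4.85 and 5.38 at Tfap2c, since the window length is divided out. With 1 region per group of overlapping regions, the Tfap2b medians were 7.74 and 8.27 in place of 8.01 and 8.49. The percentile of the highest region rose at Tfap2b from 56.2 (wild-type) and 66.2 (MommeD43) to 59.7 and 70.3 outside the Hox clusters, and to 67.0 and 78.2 with 1 region per group. At Tfap2c it rose from 61.5 and 72.0 to 65.3 and 76.5, and to 72.8 and 83.7. No paired analysis was possible because each column holds 1 merged value for a genotype and carries no replicate number, and leaving out 1 replicate could not be run for the same reason. The depth of 127 to 276 reads per library limits differences between the 7 regions to about their counting SD.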

Other observations

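Of the 35 regions higher by more than 0.5 in MommeD43 (1.23% of 2840), 5 were AP-2 regions and 30 were elsewhere. They lay on 12 chromosomes in all, with 14 on chromosome 5. The 35 made up 29 groups of overlapping regions, and the 5 AP-2 regions 3 groups. No share of listed regions on chromosome 5 is given, so nothing is read from the 14. Chosen after their values were seen, the Tmem132 genes, which encode transmembrane proteins, took 4 of the 35 places. All 4 regions that overlap a Tmem132 gene were past 0.5. The overlapping pair at Tmem132b had 0.80 each, Tmem132c had 1.19 and Tmem132e had 0.57. Tmem132b and Tmem132c both lie on chromosome 5, between other regions past 0.5. On that stretch, these were near Med13l (0.89), at or near Tbx3 (1.49, 1.08 and 0.93), at Oas1c (0.56) and at Galnt17 (0.79). Further regions there were not past 0.5, and not every one was higher in MommeD43. Whether the rise went with the gene family or with the location was not tested. Tmem132c had 6.88 in wild-type, below the exon 3 region of Tfap2b, and 8.08 in MommeD43, above it.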
